A study of Mus musculus with 16 samples.

Results

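Imprinted genes were followed through endothelial cells and hemogenic endothelium of the mouse conceptus. They were taken as the rows of the deposited table whose symbol is among 40 imprinted gene symbols; 38 of the 33531 listed genes matched, and Rian and Kcnq1ot1, which have no row under these symbols, were not analysed here. The 16 RNA-seq libraries form 8 groups of 2, one for each combination of embryonic day (E9.5 or E10.5), site (embryo region or yolk sac) and sorted cell type (EC or HE). EC, endothelial cells, were Runx1-GFP-negative, CD31+, kit-, CD41- and CD45-; HE, hemogenic endothelium from which blood cells arise, were Runx1-GFP+, CD31+, kit lo/-, CD41- and CD45-. The embryo region was the aorta-gonad-mesonephros with umbilical and vitelline vessels and pieces of somite, without head, heart, lung, liver, gut, tail or limb buds. All groups share 1 cross: males homozygous for the Runx1-GFP allele Runx1tm4Dow were mated with superovulated B6C3F1 females, so every conceptus carried 1 such allele and there is no group without it. Whether the 2 libraries of a group came from different litters or sorts is not stated, and a p-value here reflects only how these libraries spread, which may be technical.

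An imprinted gene is expressed mainly from the copy inherited from 1 parent, because a control region on the DNA received methylation in the egg or in the sperm. The genes lie in domains, where a paternally expressed gene and a maternally expressed gene often share enhancers or a control region, as Igf2 and H19 do. Many act on growth: Igf2 and its partners promote growth of the fetus and placenta, while Igf2r, Cdkn1c, Grb10 and Phlda2 restrain it. Of the 38 listed genes, 16 are textbook paternally expressed genes, 9 are maternally expressed, 7 are known as maternally expressed mainly in the placenta, and 6 are imprinted only in some transcripts or tissues. Expression is given in FPKM, the fragments of a gene scaled to its length and to the size of the library, which sum both alleles, so whether a gene was imprinted in these cells was not measured.

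The libraries differed in ways that touch the results. FPKM summed to between 586501 and 785252 per library, 11639 to 12527 genes reached 1 FPKM, and read depth is unknown. The 8 endothelial markers together stood at 1277 to 2467 FPKM in 13 libraries, at 617 in E9.5 yolk sac HE replicate 2, and at 479 and 167 in the E10.5 yolk sac HE libraries. Runx1 did not separate HE from EC in the E10.5 yolk sac (2.19 and 2.17 against 2.60 and 2.04 FPKM), whereas it did in the other settings. Calls that leaving out the E10.5 yolk sac HE pair ends or adds are therefore given for the imprinted genes, and counts over the lists of related genes are given both ways where they change. Without that pair the site difference in HE rests on E9.5 libraries alone, and the stage difference in HE on embryo libraries alone. The spread, and so each p and call given with those words, still comes from all remaining libraries. Markers of other cells differed by site: the 10 visceral endoderm and epithelium markers, all listed, summed to 1906 to 8923 FPKM in yolk sac and 9.11 to 123 in embryo libraries, with Afp at 478 to 4201 against 0.791 to 17.6. The 10 mesenchyme and somite markers summed to 624 to 5688 FPKM in yolk sac and 180 to 1223 in embryo libraries, sums carried by the collagen genes Col1a1, Col1a2 and Col3a1, with Col1a1 listed at 0 in both E10.5 yolk sac HE libraries. The list itself was split by site: 4 of 10 markers rose and 5 fell in yolk sac EC, and 3 of 9 rose and 5 fell in yolk sac HE (0 of 10 rose and 5 fell on E9.5 libraries alone). The somite gene Tcf15 stood at 22.5 to 60.3 FPKM in the embryo and 0.107 to 4.99 in the yolk sac. Tcf15 was highest in E10.5 embryo EC (60.3 and 59.9 FPKM), whose libraries had the lowest sums of its list (180 and 494 FPKM). It thus did not follow the sum of its list. The 7 erythroid markers summed to 13555 to 52230 FPKM in yolk sac and 1794 to 11274 in embryo libraries. The part of these markers in the results on site was not tested, and in bulk samples fewer cells of a type cannot be told apart from less RNA per cell.

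The imprinted genes spanned the whole range of expression. H19, a long noncoding RNA, was among the 10 highest genes of every library by FPKM, at 4978 to 11242 FPKM, and made up 0.683% to 1.80% of the summed FPKM. Igf2, the fetal growth factor next to H19, lay at 1374 to 4552 FPKM in 15 libraries and was listed at 0 in E10.5 yolk sac HE replicate 2. At the other end, Ascl2, a transcription factor of the placenta (0.0997 to 1.80 FPKM), and Usp29, a ubiquitin protease gene beside Peg3 (0 to 0.337 FPKM), did not pass the filter of 1 FPKM in at least 2 libraries, which the other 36 genes passed.

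Several genes carried zeros that can be missing estimates. Mest, a hydrolase gene, stood at 0 and 0 FPKM in E9.5 embryo EC, 1175 and 1485 in E10.5 embryo EC, 2110 and 1741 in E9.5 yolk sac EC, and 1226 and 0 in E10.5 yolk sac EC and at 0 and 0 FPKM in E9.5 embryo HE, 1054 and 1215 in E10.5 embryo HE, 1460 and 1288 in E9.5 yolk sac HE, and 1184 and 962 in E10.5 yolk sac HE. Copg2, a subunit of the COPI vesicle coat whose gene overlaps that of Mest, stood at 0 and 0 FPKM in E9.5 embryo EC, 348 and 313 in E10.5 embryo EC, 374 and 365 in E9.5 yolk sac EC, and 227 and 0 in E10.5 yolk sac EC and at 0 and 0 FPKM in E9.5 embryo HE, 277 and 264 in E10.5 embryo HE, 329 and 259.5 in E9.5 yolk sac HE, and 229 and 110.0 in E10.5 yolk sac HE. Both genes were thus listed at 0 in the same 5 libraries, the 4 E9.5 embryo libraries and E10.5 yolk sac EC replicate 2, and above 100 FPKM in each of the other 11. With the zeros set aside, neither had a value in every comparison, and none is given for them. Peg10, a retrotransposon-derived gene needed in the placenta, was listed at 0 in 14 libraries and at 112 and 123 FPKM in the second replicates of E9.5 and E10.5 embryo EC, so its values are not compared. Its neighbour Sgce, with no gene between them, had values in every library. Differences are therefore given for 33 genes.

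**Figure D1:**
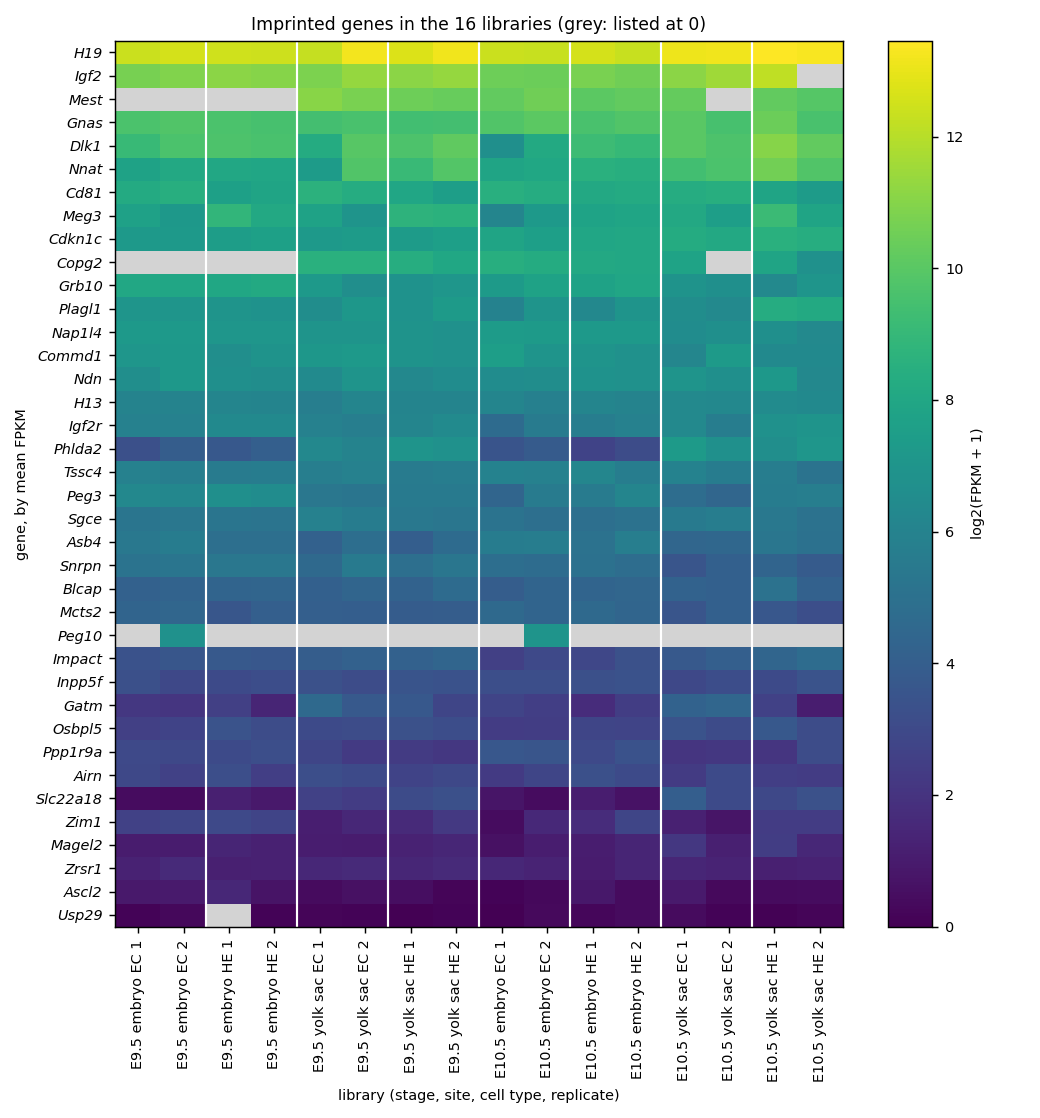
Heat map of log2(FPKM + 1) for the 38 listed imprinted genes (rows, by mean FPKM) in the 16 libraries (columns, by group); yellow is high, dark blue low and grey a value listed at 0. H19 and Igf2 are the top rows, and the grey cells of Mest and Copg2 fall in the same 5 libraries.

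Among the imprinted genes with a value, Phlda2 and Slc22a18 of the Kcnq1 domain on chromosome 7 differed most between yolk sac and embryo cells. Phlda2, a pleckstrin homology protein that restrains growth of the placenta, and Slc22a18, a transporter of the organic cation family, lie next to each other and are both maternally expressed genes of that domain. Both rose in yolk sac EC and in yolk sac HE, while Nap1l4, a histone chaperone on the other side of Phlda2, fell in both. Promoter windows of the pair that rose are shown because the neighbours moved together; they run from 250 bases before to 50 after the annotated start and come from RefSeq (build GRCm38.p6, not the mm9 of the deposited values). Windows were found for 34 of the 40 symbols. Capitals mark GATAAG, the core that transcription factors of the GATA family bind. In Phlda2 they also mark TATAAA, the box that places the start of transcription. These letters were chosen after the sequences were seen, were searched on both strands and do not overlap each other.
Phlda2, chr7:143502475-143502774, minus strand: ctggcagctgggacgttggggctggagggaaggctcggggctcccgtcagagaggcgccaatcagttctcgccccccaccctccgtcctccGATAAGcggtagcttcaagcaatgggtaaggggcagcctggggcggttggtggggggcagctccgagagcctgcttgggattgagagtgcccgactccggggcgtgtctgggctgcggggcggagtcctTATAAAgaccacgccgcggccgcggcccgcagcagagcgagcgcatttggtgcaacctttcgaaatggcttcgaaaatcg
Slc22a18, chr7:143473539-143473838, plus strand: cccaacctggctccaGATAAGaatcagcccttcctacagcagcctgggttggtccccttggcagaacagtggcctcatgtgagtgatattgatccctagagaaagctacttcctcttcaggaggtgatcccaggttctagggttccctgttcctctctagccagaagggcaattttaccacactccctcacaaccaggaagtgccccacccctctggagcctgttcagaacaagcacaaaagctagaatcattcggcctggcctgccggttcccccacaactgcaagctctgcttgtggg
Each window holds 1 GATAAG, found in 7.44% of 32851 promoter windows. Phlda2 alone of the pair holds TATAAA, found in 13.6% of windows, and it also holds 2 copies of GGGCGG, a GC box found in 35.7%. The Phlda2 window has 26 CpG dinucleotides and the Slc22a18 window has 2, beside a median of 7.0 over all windows. A match describes letters in the window and not a bound site.

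Phlda2 stood at 8.69 and 14.9 FPKM in E9.5 embryo EC, 10.4 and 13.6 in E10.5 embryo EC, 76.1 and 64.4 in E9.5 yolk sac EC, and 162 and 108 in E10.5 yolk sac EC. In HE it stood at 12.3 and 16.1 FPKM in E9.5 embryo HE, 5.47 and 7.59 in E10.5 embryo HE, 125 and 111 in E9.5 yolk sac HE, and 99.6 and 132 in E10.5 yolk sac HE. Every yolk sac library lay above every embryo library: the embryo libraries reached at most 16.1 FPKM and the yolk sac libraries were no lower than 64.4. The log2 difference on log2(FPKM + 1), yolk sac minus embryo, was 2.94 ± 0.195 SE, adjusted p = 7.34e-07, in EC and 3.46 ± 0.195 SE, adjusted p = 1.89e-07, in HE (limma, Benjamini-Hochberg over all genes tested, as for every adjusted p given here). On E9.5 libraries alone the HE difference was 2.98 (adjusted p = 4.16e-05).

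Slc22a18 was scarce in the embryo. It stood at 0.380 and 0.299 FPKM in E9.5 embryo EC, 0.725 and 0.351 in E10.5 embryo EC, 5.08 and 4.27 in E9.5 yolk sac EC, and 15.1 and 7.23 in E10.5 yolk sac EC. HE libraries gave 1.30 and 0.896 FPKM in E9.5 embryo HE, 1.15 and 0.582 in E10.5 embryo HE, 7.52 and 8.80 in E9.5 yolk sac HE, and 6.60 and 9.13 in E10.5 yolk sac HE. Again the sites did not overlap, with at most 1.30 FPKM in the embryo and at least 4.27 in the yolk sac. It rose by a log2 difference of 2.50 ± 0.215 SE, adjusted p = 5.34e-06, in EC and 2.19 ± 0.215 SE, adjusted p = 1.36e-05, in HE, and the HE value on E9.5 libraries alone was 2.13 (adjusted p = 0.000747). Nap1l4 stood at 157 and 154 FPKM in E9.5 embryo EC, 167 and 163 in E10.5 embryo EC, 126 and 125 in E9.5 yolk sac EC, and 92.8 and 104 in E10.5 yolk sac EC. The HE values of Nap1l4 were 133 and 133 FPKM in E9.5 embryo HE, 150.1 and 157 in E10.5 embryo HE, 118 and 112 in E9.5 yolk sac HE, and 102 and 78.3 in E10.5 yolk sac HE. Its lowest embryo library (133 FPKM) was above its highest yolk sac library (126 FPKM). Nap1l4 fell in EC (log2 difference -0.53 ± 0.0974 SE, adjusted p = 0.00149) and in HE (-0.49 ± 0.0974 SE, adjusted p = 0.00202), but on E9.5 libraries alone the HE difference was -0.21 (adjusted p = 0.235).

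The rest of the Kcnq1 domain was mixed by site. Osbpl5, a lipid transfer protein, stood at 4.91 and 5.63 FPKM in E9.5 embryo EC, 4.21 and 4.42 in E10.5 embryo EC, 7.21 and 7.61 in E9.5 yolk sac EC, and 10.1 and 7.54 in E10.5 yolk sac EC. In HE, Osbpl5 gave 9.90 and 7.81 FPKM in E9.5 embryo HE, 6.10 and 5.83 in E10.5 embryo HE, 8.96 and 8.19 in E9.5 yolk sac HE, and 11.9 and 7.62 in E10.5 yolk sac HE. The sites did not overlap in EC, where Osbpl5 rose (0.65 ± 0.152 SE, adjusted p = 0.0063), and did overlap in HE, where the difference was 0.28 (adjusted p = 0.167). Tssc4, a splicing cofactor (33.7 to 71.4 FPKM), Cdkn1c and Cd81 were not called by site in either cell type.

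**Figure D2:**
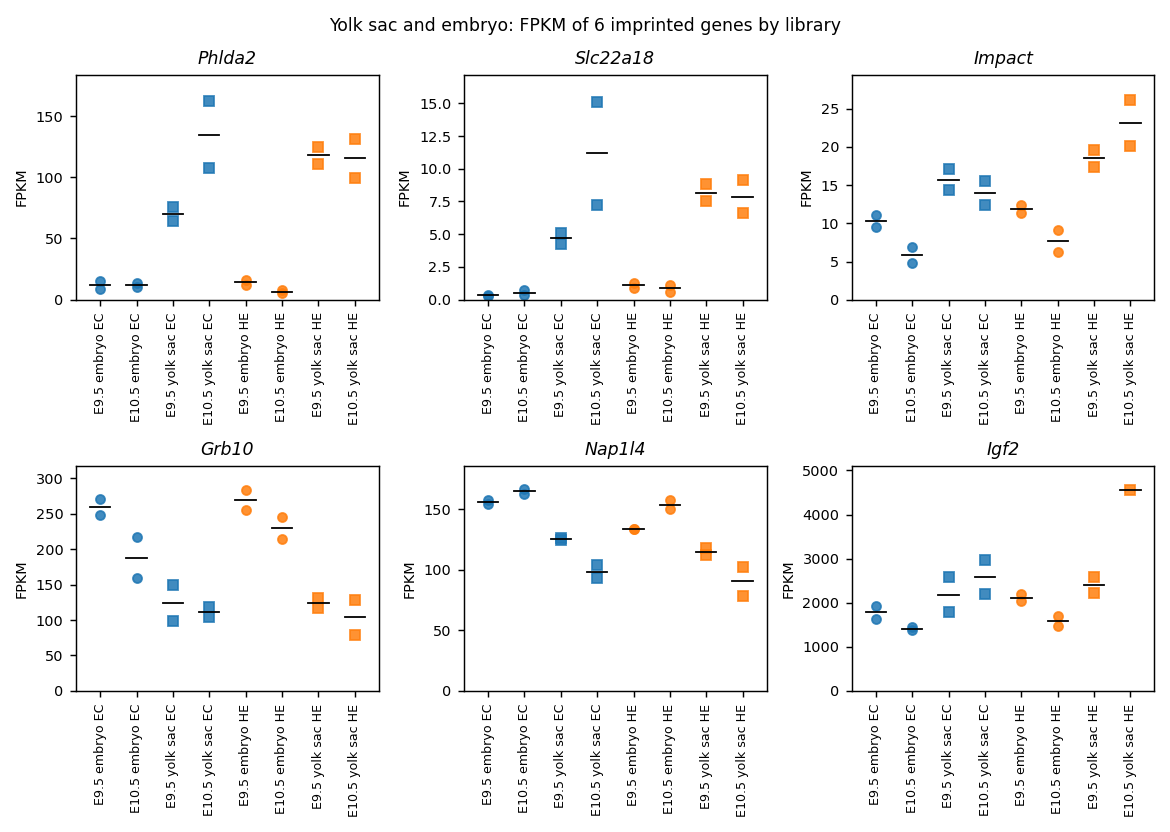
FPKM (y axis, linear, from 0) of Phlda2, Slc22a18, Impact, Grb10, Nap1l4 and Igf2 in each library by group (x axis); circles are embryo and squares yolk sac, blue is EC and orange HE, and lines are means of the 2 libraries. Phlda2 and Slc22a18 are higher and Grb10 and Nap1l4 lower in all 8 yolk sac libraries than in any embryo library, and the Igf2 library listed at 0 is E10.5 yolk sac HE replicate 2.

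Across all imprinted genes with a value, 14 of 33 were called between yolk sac and embryo in EC (8 higher, 6 lower), beside 34.2% of all 13951 genes tested (15.5% higher, 18.7% lower). In HE 12 of 33 were called (7 higher, 5 lower), beside 37% of 13941 genes (14.7% higher, 22.3% lower). With both directions together, these shares are near the background and show nothing particular to imprinted genes. By direction, called imprinted genes were more often higher than lower and called genes at large more often lower. This tilt was not tested. The median log2 difference of the 33 genes was 0.07 in EC and 0.17 in HE, and over all genes tested it was -0.10 and -0.14. When each library was scaled to a common median ratio, the HE median of all genes moved to -0.03. Of the 33 imprinted genes 16 were then called in EC (11 higher) and 14 in HE (11 higher). Under that scaling 17.8% of all genes were called higher and 14.6% lower in EC (32.4% in all), and 17.9% higher and 16.1% lower in HE (33.9% in all). With the HE difference taken on E9.5 libraries alone and the spread from all remaining libraries, 5 of 33 were called in HE (2 higher, 3 lower), beside 15.3% of all genes. Without the E10.5 yolk sac HE pair, which changes only the estimate of spread in EC, 16 of 33 were called in EC (9 higher, 7 lower), beside 37.6%; Nnat and Snrpn were the additions. Among 9 maternally expressed genes 2 rose and 2 fell in EC and 3 rose and 1 fell in HE, and among 13 paternally expressed genes 4 rose and 2 fell in each cell type. On E9.5 libraries alone, the HE counts were 2 higher and 1 lower of the maternally expressed genes and 0 higher and 1 lower of the paternally expressed genes. Of the 6 placental maternal genes 2 rose and 2 fell in EC and 2 fell in HE (1 on E9.5 libraries alone), and none of the 5 with isoform-limited or tissue-limited imprinting was called in either, where limma gave 0 calls.

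Growth regulators outside the Kcnq1 domain also differed by site. Grb10, an adaptor that restrains signaling by the insulin and IGF1 receptors, stood at 270.1 and 248 FPKM in E9.5 embryo EC, 159 and 217 in E10.5 embryo EC, 149 and 99.1 in E9.5 yolk sac EC, and 119 and 104 in E10.5 yolk sac EC. HE libraries gave Grb10 values of 255 and 283 FPKM in E9.5 embryo HE, 214 and 244 in E10.5 embryo HE, 117 and 131 in E9.5 yolk sac HE, and 79.0 and 128 in E10.5 yolk sac HE. All yolk sac libraries, at most 149 FPKM, lay below all embryo libraries, at least 159. Grb10 fell in EC (log2 difference -0.91 ± 0.174 SE, adjusted p = 0.00184) and in HE (-1.15 ± 0.174 SE, adjusted p = 0.000342), also on E9.5 libraries alone (-1.11, adjusted p = 0.00407).

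Igf2, the ligand, was measured at 1641 and 1933 FPKM in E9.5 embryo EC, 1441 and 1374 in E10.5 embryo EC, 1783 and 2582 in E9.5 yolk sac EC, and 2189 and 2964 in E10.5 yolk sac EC. Its HE values were 2188 and 2036 FPKM in E9.5 embryo HE, 1694 and 1479 in E10.5 embryo HE, 2210 and 2577 in E9.5 yolk sac HE, and 4552 and 0 in E10.5 yolk sac HE. In EC the sites overlapped, and Igf2 rose in yolk sac by 0.56 ± 0.171 SE, adjusted p = 0.0263. That call was lost without any of 4 EC libraries (E9.5 embryo replicate 1, E10.5 embryo replicate 2, or replicate 2 of either yolk sac group), with adjusted p up to 0.103. In HE the 3 yolk sac libraries above 0 exceeded all 4 embryo libraries, and Igf2 rose by 0.85 ± 0.191 SE, adjusted p = 0.00533, with the zero set aside. Without the E10.5 yolk sac HE pair the HE difference was 0.18 (adjusted p = 0.665), and with all zeros kept as deposited Igf2 was called in neither cell type. H19 stood at 5237 and 6154 FPKM in E9.5 embryo EC, 5365 and 5163 in E10.5 embryo EC, 4978 and 9500 in E9.5 yolk sac EC, and 8862 and 9309 in E10.5 yolk sac EC. HE libraries held H19 at 5820 and 5465 FPKM in E9.5 embryo HE, 6197 and 5046 in E10.5 embryo HE, 6823 and 9356 in E9.5 yolk sac HE, and 11242 and 10382 in E10.5 yolk sac HE. H19 rose in yolk sac HE, where the sites did not overlap (0.73 ± 0.224 SE, adjusted p = 0.0241), but on E9.5 libraries alone the difference was 0.50 (adjusted p = 0.334). The HE call of H19 was also lost without either E9.5 embryo library, E9.5 yolk sac replicate 2 or E10.5 embryo replicate 2 (adjusted p up to 0.104). In EC the sites overlapped for H19, with a difference of 0.53 (adjusted p = 0.087).

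Impact, which inhibits the amino acid sensing kinase GCN2 in mouse, stood at 9.52 and 11.2 FPKM in E9.5 embryo EC, 4.82 and 6.84 in E10.5 embryo EC, 14.4 and 17.1 in E9.5 yolk sac EC, and 12.4 and 15.6 in E10.5 yolk sac EC. In HE it was at 12.4 and 11.4 FPKM in E9.5 embryo HE, 6.27 and 9.15 in E10.5 embryo HE, 17.4 and 19.6 in E9.5 yolk sac HE, and 20.2 and 26.1 in E10.5 yolk sac HE. Yolk sac libraries were above embryo libraries in each pairing of stage and cell type. Impact rose in EC (0.85 ± 0.157 SE, adjusted p = 0.00144) and in HE (1.04 ± 0.157 SE, adjusted p = 0.00033); on E9.5 libraries alone the HE difference was 0.59 (adjusted p = 0.0903).

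Nnat, a small membrane protein of the endoplasmic reticulum, gave 217 and 279 FPKM in E9.5 embryo EC, 233 and 256 in E10.5 embryo EC, 166 and 882 in E9.5 yolk sac EC, and 659.8 and 792 in E10.5 yolk sac EC. Nnat in HE stood at 272 and 252 FPKM in E9.5 embryo HE, 374 and 345 in E10.5 embryo HE, 548 and 926 in E9.5 yolk sac HE, and 1549 and 905 in E10.5 yolk sac HE. The HE sites did not overlap, and Nnat rose by 1.58 ± 0.399 SE, adjusted p = 0.00871, but by E9.5 libraries alone the difference was 1.44 (adjusted p = 0.115). In EC a single E9.5 yolk sac library lay below the embryo libraries, and the difference was 1.10 (adjusted p = 0.0513); with the spread estimated without the E10.5 yolk sac HE pair it was called, at 1.10 (adjusted p = 0.0495). Plagl1, a zinc finger regulator of other imprinted genes, stood at 129 and 127 FPKM in E9.5 embryo EC, 61.0 and 126 in E10.5 embryo EC, 94.8 and 137 in E9.5 yolk sac EC, and 95.0 and 78.5 in E10.5 yolk sac EC. The HE values of Plagl1 were 126 and 114 FPKM in E9.5 embryo HE, 77.4 and 124 in E10.5 embryo HE, 114 and 158 in E9.5 yolk sac HE, and 326 and 283 in E10.5 yolk sac HE. Both E10.5 yolk sac HE libraries were above all 14 others. Plagl1 rose in HE by 0.89 ± 0.226 SE, adjusted p = 0.00876, and without them the difference was 0.16 (adjusted p = 0.787). In EC the difference of Plagl1 was -0.092 (adjusted p = 0.781).

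Dlk1, a membrane protein related to Notch ligands and made by progenitor and stromal cells, stood at 541 and 802 FPKM in E9.5 embryo EC, 103 and 289 in E10.5 embryo EC, 312 and 1012 in E9.5 yolk sac EC, and 1048 and 841 in E10.5 yolk sac EC. Dlk1 in HE was at 839 and 765 FPKM in E9.5 embryo HE, 597 and 518 in E10.5 embryo HE, 832 and 1156 in E9.5 yolk sac HE, and 2047 and 1206 in E10.5 yolk sac HE. Its 3 lowest libraries, both of E10.5 embryo EC and E9.5 yolk sac EC replicate 1, are also the libraries with 3 of the 4 lowest mesenchyme marker sums (180, 494 and 624 FPKM, carried by collagen genes), and their part in the result was not tested. Dlk1 rose in yolk sac EC (1.10 ± 0.378 SE, adjusted p = 0.0405), but leaving out any of 10 single libraries ended the call, with adjusted p up to 0.156. The difference in HE was 0.89 (adjusted p = 0.0836). Its maternally expressed partner Meg3, a noncoding RNA, was not called by site, at 0.54 (adjusted p = 0.23) in EC and 0.40 (adjusted p = 0.358) in HE.

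Other genes moved by site in EC. Gatm, the first enzyme of creatine synthesis, rose by 1.85 ± 0.366 SE, adjusted p = 0.00225, and Sgce, epsilon-sarcoglycan, by 0.57 ± 0.106 SE, adjusted p = 0.00148. Sgce stood at 36.8 and 39.1 FPKM in E9.5 embryo EC, 33.3 and 28.7 in E10.5 embryo EC, 58.8 and 50.1 in E9.5 yolk sac EC, and 46.4 and 50.8 in E10.5 yolk sac EC. Its HE values were 36.6 and 34.7 FPKM in E9.5 embryo HE, 29.1 and 32.7 in E10.5 embryo HE, 40.6 and 37.6 in E9.5 yolk sac HE, and 40.4 and 32.5 in E10.5 yolk sac HE. The EC libraries of the sites did not overlap, while those of HE did, with a difference of 0.18 (adjusted p = 0.205). Asb4, a substrate-binding subunit of a ubiquitin ligase, stood at 40.4 and 49.5 FPKM in E9.5 embryo EC, 49.4 and 51.7 in E10.5 embryo EC, 17.4 and 28.3 in E9.5 yolk sac EC, and 21.0 and 21.6 in E10.5 yolk sac EC. In HE, Asb4 gave 28.7 and 29.1 FPKM in E9.5 embryo HE, 33.2 and 53.1 in E10.5 embryo HE, 15.2 and 24.6 in E9.5 yolk sac HE, and 37.5 and 31.9 in E10.5 yolk sac HE. Asb4 fell in yolk sac EC without overlap (-1.09 ± 0.193 SE, adjusted p = 0.00109) and overlapped in HE (-0.42, adjusted p = 0.112).

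Ppp1r9a, neurabin, which binds actin and protein phosphatase 1, stood at 6.92 and 6.54 FPKM in E9.5 embryo EC, 11.4 and 10.6 in E10.5 embryo EC, 5.98 and 3.83 in E9.5 yolk sac EC, and 3.26 and 3.50 in E10.5 yolk sac EC. The HE libraries held 7.16 and 8.36 FPKM in E9.5 embryo HE, 6.73 and 9.53 in E10.5 embryo HE, 3.99 and 3.57 in E9.5 yolk sac HE, and 3.15 and 7.68 in E10.5 yolk sac HE. It fell in EC without overlap (-0.93 ± 0.215 SE, adjusted p = 0.00569) and in HE with 1 yolk sac library among the embryo values (-0.73 ± 0.215 SE, adjusted p = 0.0195). The HE call was lost without replicate 2 of E9.5 embryo, E9.5 yolk sac or E10.5 embryo (adjusted p up to 0.0757). Mcts2, a retrogene copy of the translation factor gene Mcts1, whose reads may be shared with that copy, stood at 19.2 and 20.6 FPKM in E9.5 embryo EC, 23.6 and 19.2 in E10.5 embryo EC, 15.6 and 15.3 in E9.5 yolk sac EC, and 10.9 and 16.4 in E10.5 yolk sac EC. In HE, Mcts2 gave 11.3 and 15.9 FPKM in E9.5 embryo HE, 23.2 and 19.9 in E10.5 embryo HE, 14.1 and 14.9 in E9.5 yolk sac HE, and 11.6 and 8.52 in E10.5 yolk sac HE. Mcts2 fell in EC without overlap (-0.49 ± 0.156 SE, adjusted p = 0.0297) and in HE with overlap (-0.47 ± 0.156 SE, adjusted p = 0.0332). The EC call of Mcts2 was lost in 6 of 16 runs that left out 1 library and the HE call in 5 (adjusted p up to 0.112 and 0.134). Both calls of Mcts2 were lost under median ratio scaling, and on E9.5 libraries alone the HE difference turned to 0.10 (adjusted p = 0.788).

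**Figure D3:**
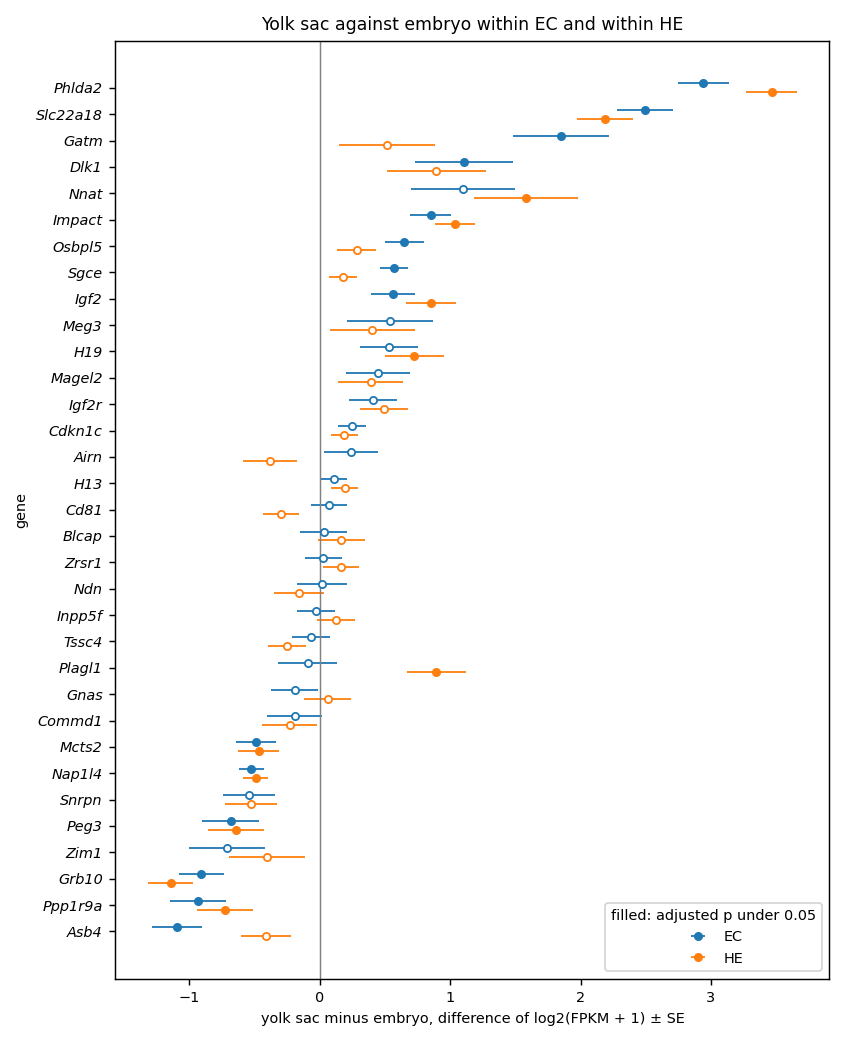
Yolk sac minus embryo differences of the 33 imprinted genes with a value on the log2(FPKM + 1) scale (x axis), in EC (blue) and HE (orange), with bars of 1 SE and filled points where the adjusted p was under 0.05. Phlda2 and Slc22a18 lie farthest to the right in both cell types, and Grb10, Ppp1r9a, Peg3, Nap1l4 and Mcts2 are filled on the left in both.

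HE against EC compares the 2 sorted cell types, which also differed in endothelial markers. Of 8 such markers, 7 fell and 0 rose in HE by limma, beside 5.75% of all genes called lower. Without the E10.5 yolk sac HE pair 0 were called, beside 0.574% of all genes called lower in that fit. All 8 were still below 0, with a median log2 difference of -0.473, and 4 had an unadjusted p under 0.05 by limma. Of 6 germ cell markers 4 had a value, and these 4 fell in HE, with all libraries and also without that pair. The part of the endothelial and germ cell markers in the calls below was not tested. Over the 4 settings of stage and site, 6 of 33 imprinted genes were called (4 higher, 2 lower), beside 12.6% of all 13941 genes tested (6.85% higher, 5.75% lower). Igf2r, Meg3, Peg3 and Zim1 rose in HE, and Cd81 and Gatm fell. Without the E10.5 yolk sac HE pair 2 of 33 remained called, Meg3 and Cd81, beside 2.56% of all genes. The median log2 difference was 0.13 over the 33 genes and 0.03 over all genes. By usual allele, 3 of 9 maternally expressed genes rose, 1 of 13 paternally expressed genes rose and 2 of 6 placental maternal genes fell. Without the pair these counts were 1, 0 and 1.

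Cd81, a tetraspanin of the cell surface, stood at 293 and 348 FPKM in E9.5 embryo EC, 354 and 322 in E10.5 embryo EC, 398 and 319.6 in E9.5 yolk sac EC, and 316 and 350.2 in E10.5 yolk sac EC. In HE, Cd81 was at 202 and 234 FPKM in E9.5 embryo HE, 279 and 294 in E10.5 embryo HE, 244 and 185 in E9.5 yolk sac HE, and 228 and 165 in E10.5 yolk sac HE. HE lay below EC in each setting. Cd81 fell (log2 difference -0.58 ± 0.0993 SE, adjusted p = 0.0107), also without the E10.5 yolk sac HE pair (-0.51, adjusted p = 0.0369). Igf2r, the receptor that carries IGF2 to lysosomes, stood at 58.2 and 58.2 FPKM in E9.5 embryo EC, 25.4 and 46.6 in E10.5 embryo EC, 59.7 and 53.0 in E9.5 yolk sac EC, and 80.0 and 50.7 in E10.5 yolk sac EC. The HE values of Igf2r were 82.7 and 81.8 FPKM in E9.5 embryo HE, 51.5 and 58.8 in E10.5 embryo HE, 69.2 and 84.9 in E9.5 yolk sac HE, and 113 and 124 in E10.5 yolk sac HE. HE lay above EC in each setting, as it did for 1 of 32 imprinted genes with a value in all settings; with Cd81 in the opposite direction, 2 of 32 had no overlap in any setting, beside 3.62% of all genes. Igf2r rose by 0.62 ± 0.129 SE, adjusted p = 0.0161, and without the E10.5 yolk sac HE pair the difference was 0.53 (adjusted p = 0.0828). Airn, the noncoding RNA that silences the paternal copy of Igf2r and overlaps its gene, stood at 6.47 and 5.08 FPKM in E9.5 embryo EC, 3.92 and 6.10 in E10.5 embryo EC, 8.43 and 7.10 in E9.5 yolk sac EC, and 4.05 and 6.99 in E10.5 yolk sac EC. In HE, Airn gave 8.40 and 4.72 FPKM in E9.5 embryo HE, 8.90 and 7.13 in E10.5 embryo HE, 5.64 and 6.45 in E9.5 yolk sac HE, and 4.71 and 4.29 in E10.5 yolk sac HE. Its difference was 0.05 (adjusted p = 0.843), and since the use of strand in counting is not given, reads from the stretch that Igf2r and Airn share cannot be told apart.

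Meg3 stood at 209 and 143 FPKM in E9.5 embryo EC, 68.1 and 148 in E10.5 embryo EC, 219 and 123 in E9.5 yolk sac EC, and 273 and 184 in E10.5 yolk sac EC. In HE it was at 468 and 278 FPKM in E9.5 embryo HE, 224 and 239 in E10.5 embryo HE, 414 and 384 in E9.5 yolk sac HE, and 577 and 234 in E10.5 yolk sac HE. The cell types overlapped only in the E10.5 yolk sac. Meg3 rose in HE by 1.06 ± 0.232 SE, adjusted p = 0.0185, and by 1.18 (adjusted p = 0.0336) without the E10.5 yolk sac HE pair, while for Dlk1 of the same domain the difference was 0.88 (adjusted p = 0.0514). The call of Meg3 was lost without E9.5 embryo HE replicate 1 or E10.5 embryo EC replicate 1 (adjusted p up to 0.0522).

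The Peg3 domain encodes zinc finger proteins, among them Peg3, a paternally expressed regulator of growth and maternal care, and Zim1. Peg3 and Usp29 are read from neighbouring starts in opposite directions: their RefSeq promoter windows share 263 bases as reverse complements. The Peg3 window is shown for this shared start, with TGACGTCA, the cyclic AMP response element, in capitals (letters chosen after the sequence was seen; 1.79% of windows hold it).
Peg3, chr7:6730370-6730669, minus strand: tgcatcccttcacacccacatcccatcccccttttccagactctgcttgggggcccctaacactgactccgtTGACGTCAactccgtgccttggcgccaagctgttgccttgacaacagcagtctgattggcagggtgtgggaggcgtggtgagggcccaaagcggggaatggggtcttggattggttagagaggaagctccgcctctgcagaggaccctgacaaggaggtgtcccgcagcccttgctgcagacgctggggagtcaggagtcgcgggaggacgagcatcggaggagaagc
The window has 13 CpG dinucleotides and that of Usp29 has 17. Peg3 stood at 76.5 and 74.9 FPKM in E9.5 embryo EC, 20.3 and 48.0 in E10.5 embryo EC, 39.8 and 36.3 in E9.5 yolk sac EC, and 26.9 and 20.7 in E10.5 yolk sac EC. Its HE values were 104 and 91.4 FPKM in E9.5 embryo HE, 46.9 and 69.8 in E10.5 embryo HE, 44.3 and 43.6 in E9.5 yolk sac HE, and 50.2 and 52.8 in E10.5 yolk sac HE. Usp29 stood at 0.0822 and 0.205 FPKM in E9.5 embryo EC, 0.0290 and 0.264 in E10.5 embryo EC, 0.143 and 0.0821 in E9.5 yolk sac EC, and 0.305 and 0.105 in E10.5 yolk sac EC, and in HE at 0 and 0.0897 FPKM in E9.5 embryo HE, 0.157 and 0.337 in E10.5 embryo HE, 0.0356 and 0.0850 in E9.5 yolk sac HE, and 0.0661 and 0.129 in E10.5 yolk sac HE. The genes on either side of the shared start thus differed in level, with at least 20.3 FPKM of Peg3 and at most 0.337 FPKM of Usp29 in every library. Peg3 rose in HE by 0.63 ± 0.153 SE, adjusted p = 0.0258, and without the E10.5 yolk sac HE pair the difference was 0.47 (adjusted p = 0.16). Peg3 also fell in yolk sac EC (-0.68 ± 0.217 SE, adjusted p = 0.029) and yolk sac HE (-0.64 ± 0.217 SE, adjusted p = 0.0354). Leaving out 1 library ended the cell type call of Peg3 in 6 of 16 runs (adjusted p up to 0.0639), its site call in EC in 6 (up to 0.0877) and its site call in HE in 7 (up to 0.134).

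Zim1 stood at 5.07 and 5.99 FPKM in E9.5 embryo EC, 0.378 and 1.96 in E10.5 embryo EC, 1.18 and 1.84 in E9.5 yolk sac EC, and 1.33 and 0.666 in E10.5 yolk sac EC. In HE, Zim1 gave 6.80 and 5.67 FPKM in E9.5 embryo HE, 2.25 and 6.05 in E10.5 embryo HE, 2.00 and 3.70 in E9.5 yolk sac HE, and 4.23 and 4.26 in E10.5 yolk sac HE. The lowest library of all, at 0.378 FPKM, was E10.5 embryo EC replicate 1, which was also the lowest for Peg3, Igf2r, Dlk1 and Meg3 and had the lowest mesenchyme marker sum. That library also had the highest germ cell marker sum, 192 FPKM. The part of either kind of marker in these values was not tested. Zim1 rose in HE by 0.85 ± 0.204 SE, adjusted p = 0.0247, and without the E10.5 yolk sac HE pair the difference was 0.66 (adjusted p = 0.144). Gatm stood at 3.59 and 3.28 FPKM in E9.5 embryo EC, 5.83 and 4.74 in E10.5 embryo EC, 23.2 and 12.3 in E9.5 yolk sac EC, and 17.6 and 20.6 in E10.5 yolk sac EC. The HE values of Gatm were 4.84 and 1.63 FPKM in E9.5 embryo HE, 2.32 and 4.54 in E10.5 embryo HE, 12.2 and 6.14 in E9.5 yolk sac HE, and 4.99 and 1.09 in E10.5 yolk sac HE. Gatm fell in HE (log2 difference -1.03 ± 0.259 SE, adjusted p = 0.0281), and without that pair the difference was -0.54 (adjusted p = 0.225). The calls of Zim1 and of Gatm were each lost in 8 of 16 runs that left out 1 library, with adjusted p up to 0.0673 and 0.0746.

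A further 6 genes had adjusted p between 0.05 and 0.06 in HE against EC. They were Dlk1, Plagl1 (0.52, adjusted p = 0.0516), Cdkn1c (0.24, adjusted p = 0.0518), Impact (0.36, adjusted p = 0.0518), Sgce (-0.24, adjusted p = 0.0541) and Osbpl5 (0.34, adjusted p = 0.0599). Without the E10.5 yolk sac HE pair the difference of Plagl1 was 0.10 (adjusted p = 0.781), that of Impact 0.25 (adjusted p = 0.249), and those of Dlk1, Cdkn1c, Sgce and Osbpl5 were 0.92 (adjusted p = 0.115), 0.24 (adjusted p = 0.127), -0.18 (adjusted p = 0.192) and 0.41 (adjusted p = 0.063). The difference of Igf2 was 0.35 (adjusted p = 0.0932). Leaving out E9.5 yolk sac EC replicate 2 brought the number called to 13. The share of all genes called in that fit is not given, so the count is not read as a result about imprinted genes. Mesenchyme and somite markers summed to 180 to 3520 FPKM in EC and 653 to 5688 in HE; 3 of 9 rose and 0 fell in HE against EC, with 0 of 10 called without the E10.5 yolk sac HE pair (7 at an unadjusted p under 0.05), and their part in these differences was not tested.

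**Figure D4:**
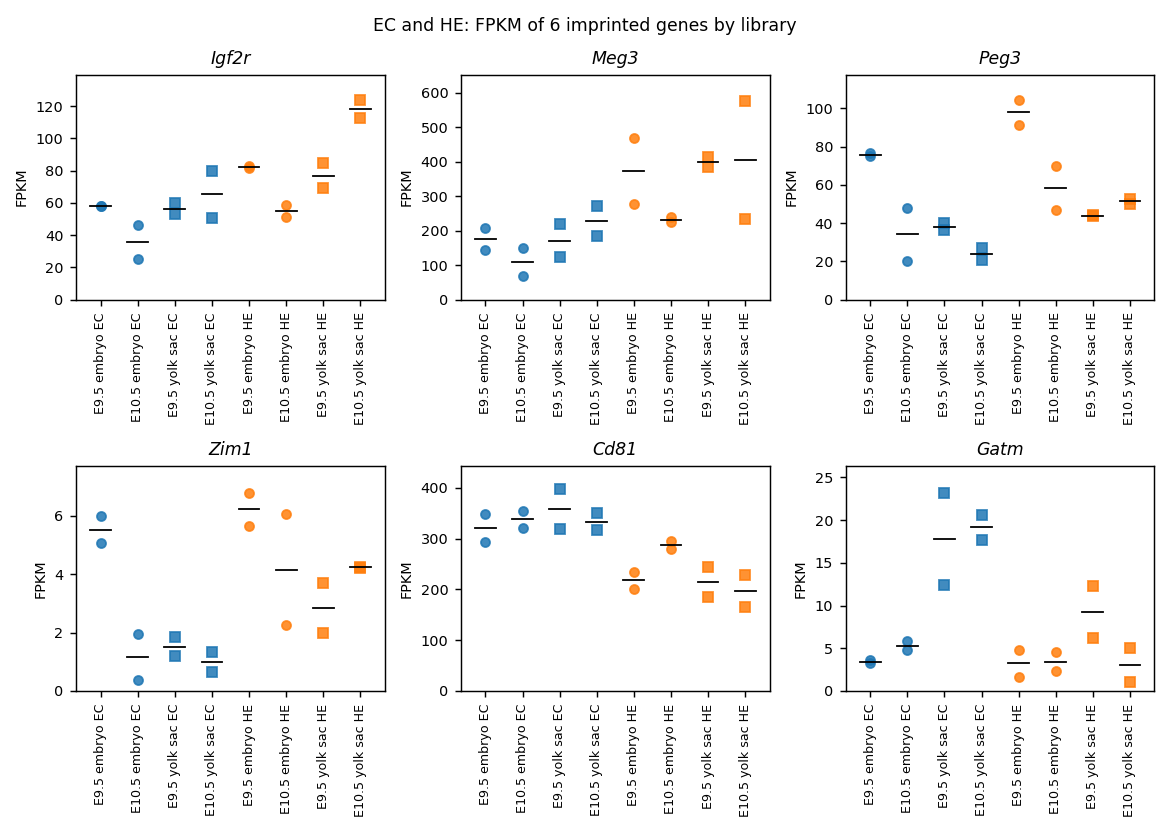
FPKM (y axis, linear, from 0) of the 6 imprinted genes called between HE and EC in each library by group (x axis); circles are embryo and squares yolk sac, blue is EC and orange HE, and lines are means of the 2 libraries. Igf2r is higher and Cd81 lower in HE in each setting, while Gatm is highest in the 4 yolk sac EC libraries.

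Stage separated few imprinted genes. In EC 2 of 33 were called between E10.5 and E9.5 (1 higher, 1 lower), beside 2.14% of all 13951 genes tested (1.1% higher, 1.04% lower). In HE 1 of 33 was called (higher), beside 2.32% of 13941 genes (1.21% higher). Leaving out the E10.5 yolk sac HE pair, 3 of 33 were called in EC (1 higher, 2 lower), beside 3.98%, and 0 of 33 in HE, beside 2.18%. At an unadjusted p under 0.05 by limma there were 7 in HE, without a share of all genes at that threshold to set beside them. The median log2 difference was -0.048 in EC and 0.024 in HE, and over all genes -0.067 and -0.084. Cdkn1c, the cyclin-dependent kinase inhibitor p57 that takes cells out of the cycle, was called in both. It stood at 157 and 156 FPKM in E9.5 embryo EC, 229.7 and 191 in E10.5 embryo EC, 149 and 167 in E9.5 yolk sac EC, and 314 and 274 in E10.5 yolk sac EC. In HE, Cdkn1c was at 179 and 197 FPKM in E9.5 embryo HE, 247 and 265 in E10.5 embryo HE, 166 and 191 in E9.5 yolk sac HE, and 372 and 329 in E10.5 yolk sac HE. E10.5 lay above E9.5 in each pairing of site and cell type, with means of 252 against 157 FPKM in EC and 303 against 183 FPKM in HE. Cdkn1c rose by 0.65 ± 0.105 SE, adjusted p = 0.011, in EC and 0.71 ± 0.105 SE, adjusted p = 0.00762, in HE. On embryo libraries alone the HE difference was 0.44 (adjusted p = 0.168). The EC call was lost without any of 3 single embryo EC libraries (both of E9.5, and E10.5 replicate 1), with adjusted p up to 0.056.

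Peg3 fell in EC between E9.5 and E10.5 (-0.96 ± 0.217 SE, adjusted p = 0.0464), a call that leaving out single libraries ended in 13 of 16 runs (adjusted p up to 0.154). In HE its difference was -0.27 (adjusted p = 0.553). Snrpn, a spliceosome protein gene next to the Prader-Willi imprinting center, stood at 34.5 and 36.8 FPKM in E9.5 embryo EC, 28.1 and 26.0 in E10.5 embryo EC, 23.6 and 45.3 in E9.5 yolk sac EC, and 10.7 and 16.6 in E10.5 yolk sac EC. The HE values of Snrpn were 39.6 and 39.5 FPKM in E9.5 embryo HE, 31.1 and 27.6 in E10.5 embryo HE, 29.2 and 37.9 in E9.5 yolk sac HE, and 19.2 and 13.7 in E10.5 yolk sac HE. E10.5 lay below E9.5 in each pairing, yet neither difference passed the threshold, at -0.81 (adjusted p = 0.0587) in EC and -0.71 (adjusted p = 0.0896) in HE. With the spread estimated without the E10.5 yolk sac HE pair Snrpn was called in EC by stage, at -0.81 (adjusted p = 0.0422), and by site, at -0.54 (adjusted p = 0.0461) against -0.54 (adjusted p = 0.0527) with all libraries. Cdkn1c and Snrpn were 2 of 32 genes without overlap of stages in any pairing, beside 3.26% of all genes; for site 5 of 32 had none (Phlda2, Slc22a18, Impact, Grb10 and Nap1l4), beside 22.8%.

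**Figure D5:**
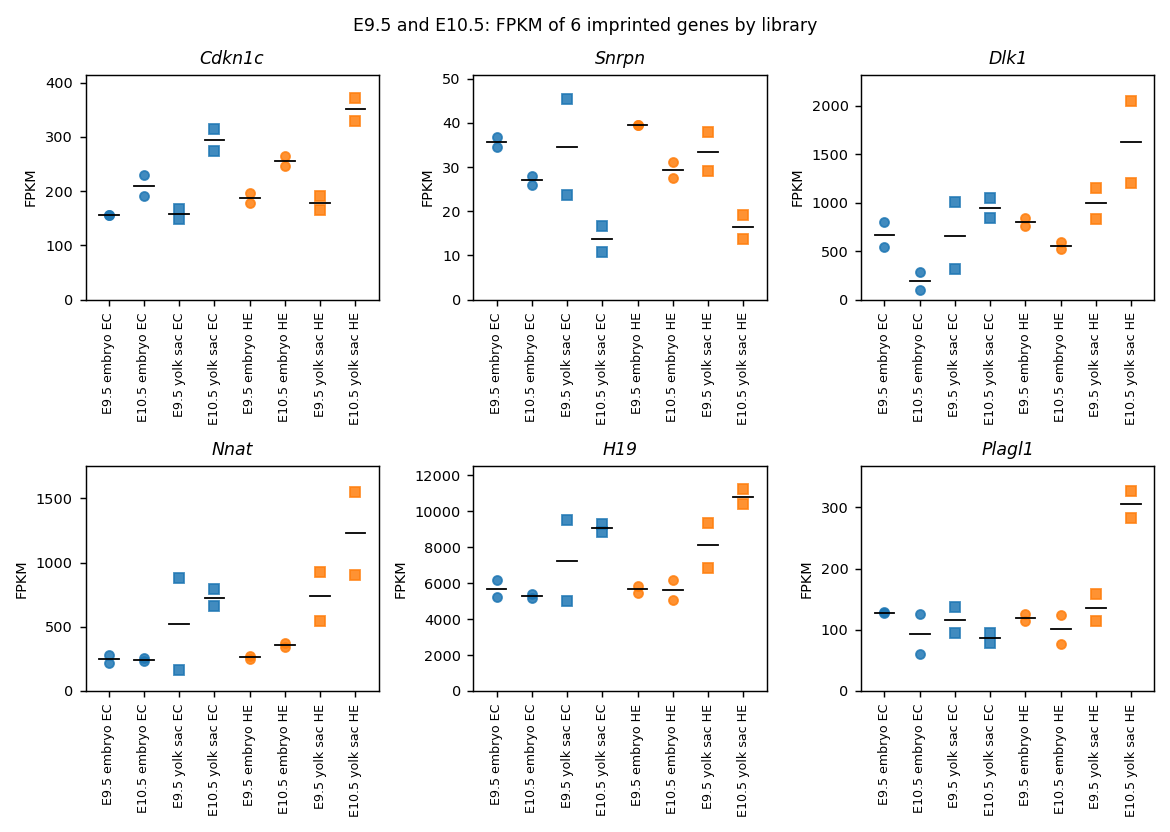
FPKM (y axis, linear, from 0) of Cdkn1c, Snrpn, Dlk1, Nnat, H19 and Plagl1 in each library by group (x axis), with E9.5 beside E10.5; circles are embryo and squares yolk sac, blue is EC and orange HE, and lines are means of the 2 libraries. Cdkn1c is higher and Snrpn lower at E10.5 in each pairing, and both E10.5 yolk sac HE libraries are highest for Plagl1.

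Whether the site or stage differences themselves differed between HE and EC was tested by interaction. Limma called 0 of 33 imprinted genes for cell type and site, beside 0.115% of all genes, and 0 of 33 for cell type and stage, beside 0.0287%. At an unadjusted p under 0.05 there were 4 and 6, beside 12.4% and 6.39% of all genes. For site these were Plagl1 (0.99, unadjusted p = 0.00953, adjusted p = 0.254), Sgce (-0.39, unadjusted p = 0.0225, adjusted p = 0.318), Gatm (-1.33, unadjusted p = 0.0243, adjusted p = 0.324) and Asb4 (0.68, unadjusted p = 0.0288, adjusted p = 0.343). For stage they were Phlda2 (-1.01, unadjusted p = 0.00338, adjusted p = 0.686), Plagl1 (0.91, unadjusted p = 0.0149, adjusted p = 0.728), Slc22a18 (-0.73, unadjusted p = 0.0346, adjusted p = 0.756), Zim1 (0.96, unadjusted p = 0.037, adjusted p = 0.756), Peg3 (0.69, unadjusted p = 0.0446, adjusted p = 0.77) and Asb4 (0.61, unadjusted p = 0.0456, adjusted p = 0.77). Without the E10.5 yolk sac HE pair there were 0 and 1, counts for which no share of all genes is given. Genes called by site in 1 cell type and not in the other, such as Gatm in EC or Nnat in HE, are thus not shown to differ between the cell types.

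The remaining imprinted genes were not called in any of these comparisons. In the Prader-Willi domain Ndn, a MAGE family growth suppressor of neurons, stood at 101 and 144 FPKM in E9.5 embryo EC, 91.2 and 95.9 in E10.5 embryo EC, 85.6 and 125 in E9.5 yolk sac EC, and 124 and 102 in E10.5 yolk sac EC. In HE, Ndn was at 104 and 95.6 FPKM in E9.5 embryo HE, 115 and 109 in E10.5 embryo HE, 77.7 and 93.4 in E9.5 yolk sac HE, and 142 and 77.1 in E10.5 yolk sac HE. Its neighbour Magel2, another MAGE family gene, was low, at 1.05 and 1.01 FPKM in E9.5 embryo EC, 0.515 and 1.08 in E10.5 embryo EC, 1.13 and 1.05 in E9.5 yolk sac EC, and 3.55 and 1.25 in E10.5 yolk sac EC, and in HE at 1.66 and 1.35 FPKM in E9.5 embryo HE, 1.10 and 1.67 in E10.5 embryo HE, 1.46 and 1.75 in E9.5 yolk sac HE, and 4.40 and 1.83 in E10.5 yolk sac HE. Ndn thus exceeded Magel2 in every library. Gnas, which encodes the stimulatory G protein subunit and other transcripts with opposite imprints, ranged from 665 to 1392 FPKM. Commd1, a copper metabolism gene, ranged from 72.3 to 188 FPKM and Zrsr1, a splicing factor retrogene in its intron, from 1.06 to 2.08. H13, the signal peptide peptidase whose gene holds Mcts2, ranged from 52.6 to 90.3 FPKM. Blcap, which hosts Nnat, ranged from 14.9 to 32.1 FPKM and Inpp5f, an inositol phosphatase, from 6.46 to 10.4.

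Genes of the IGF system around Igf2, Igf2r and Grb10 differed too. Of 16 listed, 14 had a value, and in HE against EC 4 rose and 3 fell, beside 6.85% and 5.75% of all genes. When the E10.5 yolk sac HE pair was left out, 1 rose and 0 fell, beside 1.99% and 0.574% of all genes. At an unadjusted p under 0.05 by limma there were 7 of 14, for which no such share is given. Irs2, an adaptor of the insulin and IGF1 receptors, rose in HE by 1.07 ± 0.175 SE, adjusted p = 0.00866 (6.56 against 2.57 FPKM), also without the E10.5 yolk sac HE pair (0.97, adjusted p = 0.036). The receptor Igf1r rose by 0.47 ± 0.13 SE, adjusted p = 0.0368, and its difference without that pair was 0.31 (adjusted p = 0.209). By site 2 rose and 3 fell in EC, beside 34.2% of all genes, and 3 rose and 3 fell in HE, beside 37%. On E9.5 libraries alone 2 rose and 1 fell in HE, beside 15.3%. Secreted binding proteins moved in opposite directions: Igfbp1 rose in yolk sac EC (2.53 ± 0.205 SE, adjusted p = 3.35e-06; 10.2 against 0.582 FPKM) and Igfbp7 rose as well (3.00 ± 0.375 SE, adjusted p = 9.82e-05; 111 against 15.4 FPKM), whereas Igfbp2 fell (-1.01 ± 0.341 SE, adjusted p = 0.0392; 223 against 543 FPKM). By stage, Igfbp1 was the only one of the 14 called with all libraries, and it rose in EC; on embryo libraries alone Igfbp7 was called higher in HE, at 2.63 (adjusted p = 0.0182).

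Imprinted genes outside the 40 also moved in both directions by site. Of 25 named, 23 were listed and 21 had a value, and 6 rose and 3 fell in yolk sac in each cell type, beside 34.2% of all genes in EC and 37% in HE. With the E10.5 yolk sac HE pair left out 7 rose and 3 fell in EC, beside 37.6% of all genes. In HE 4 rose and 1 fell, beside 15.3%. Slc22a2, a cation transporter gene imprinted in the mouse placenta, had means of 4.54 against 0.0176 FPKM in EC and 5.53 against 0.00314 FPKM in HE and rose by 2.28 ± 0.164 SE, adjusted p = 1.37e-06, in EC. Dio3, which inactivates thyroid hormone and lies in the Dlk1-Meg3 domain, rose from a low level in EC (1.47 ± 0.196 SE, adjusted p = 0.000165; 3.37 against 0.350 FPKM) and in HE (1.53 ± 0.196 SE, adjusted p = 0.000102; 3.30 against 0.381 FPKM). Peg12, a paternally expressed gene near Ndn, fell in EC (-1.45 ± 0.146 SE, adjusted p = 1.9e-05; 3.40 against 10.6 FPKM) and in HE (-1.47 ± 0.146 SE, adjusted p = 1.5e-05; 3.32 against 10.9 FPKM). By cell type 1 rose (Atp10a) and 1 fell (Kcnq1), beside 12.6% of all genes, and limma called 0 without the E10.5 yolk sac HE pair (8 at an unadjusted p under 0.05). By stage 1 fell in EC (Slc38a4), beside 2.14%, and 0 were called in HE (6 at an unadjusted p under 0.05). Without the pair 2 rose and 1 fell by stage in EC, beside 3.98% of all genes, and 0 rose and 2 fell in HE, beside 2.18%.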

How the data were processed

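RNA-seq was measured in 16 libraries of 8 groups. The FPKM values were computed and deposited by the authors as 1 table of 33531 gene symbols, and they were used as deposited; per the submitters' processing notes, Cufflinks, featureCounts and the mouse build mm9 were used, with no version or role stated. For the aligner, annotation, strand and multiply matching reads, the sources used here give nothing, so overlapping genes and retrogene copies carry uncertain values. Read depth is unknown: steps among values below 0.3 FPKM were clear in 8 libraries, at 0.67 to 0.98 times the reads of another, and unclear in 7, so precision rests on the spread between libraries. FPKM is relative to the other transcripts of a library, so abundant transcripts can shift the rest.

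Values were transformed as log2(FPKM + 1), a scale that understates changes of low genes. The test covered the 13955 genes that reached 1 FPKM in 2 or more libraries and left out 19576. Zeros counted as missing, in 45 genes, where 8 or more libraries were above 0 and all of these reached 3 FPKM. Limma 3.58.1 in R 4.3.3 was fitted with 1 mean per group over all libraries with an intensity trend, 8 residual and 3.85 prior degrees of freedom. The 7 comparisons were HE against EC averaged over 4 settings, site and stage within each cell type, and the 2 interactions. Calls were two-sided at a Benjamini-Hochberg adjusted p under 0.05 over all genes of a comparison. Counts at an unadjusted p under 0.05 stand beside a share of all genes only for the interactions with all libraries. Elsewhere no such share is given, so these counts are not read as results about the listed genes. The fit was tested on simulated data.

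The members, the further gene lists, the markers and the tests were chosen with earlier results of these data known. Values in every library are given for imprinted genes called in any comparison, for those with zeros set aside and for named domain pairs; the others are given by range, and Snrpn was added after its values were seen. Alternatives were a pseudocount of 0.1, no filter, zeros kept, median ratio scaling, a replicate block, leaving out each library, and leaving out both E10.5 yolk sac HE libraries. Promoter windows come from RefSeq, build GRCm38.p6; no coordinates of the deposited values are given.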

Additional observations from a re-analysis of the deposited data

How the results depend on the processing

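The number of imprinted genes called between HE and EC dropped from 6 to 2 without the E10.5 yolk sac HE libraries, between yolk sac and embryo in HE from 12 to 5, and between E10.5 and E9.5 in HE from 1 to 0; in each of these fits fewer samples remained. Without the same libraries the count rose from 14 to 16 for site in EC and from 2 to 3 for stage in EC. Between E10.5 and E9.5 in EC, 2 genes were called, and 1 with a pseudocount of 0.1, 1 without the filter and 1 with a replicate block, where Peg3 was lost. Over all comparisons, 28 calls of imprinted genes were kept and 7 lost without the filter. Under median ratio scaling 32 were kept and 3 lost. Leaving out 1 library at a time gave 3 to 13 calls for HE against EC, 10 to 16 for site in EC and 8 to 14 for site in HE. It gave 0 to 3 for stage in EC, 1 to 2 for stage in HE and 0 to 0 for both interactions. These counts show how calls move with the libraries, and no share of all genes is given beside them. Calls between HE and EC were fewest (3) without any one of 6 libraries: both of E9.5 embryo EC, E9.5 embryo HE replicate 1, E9.5 yolk sac HE replicate 2, E10.5 embryo EC replicate 1 and E10.5 yolk sac EC replicate 2. Stage calls in EC were 0 without either E9.5 embryo EC library or E10.5 embryo EC replicate 1. Igf2 between yolk sac and embryo in HE turned from 0.85 to -2.19 on the log2 scale with zeros kept, since 1 yolk sac library is listed at 0. Mcts2 in the same comparison turned from -0.47 to 0.10 without the E10.5 yolk sac HE libraries; the cause was not tested. Deviations of same-numbered replicates were compared between groups. Of 28 pairs of groups, 8 had a correlation over 0.1, and the range was -0.261 to 0.38. Whether same-numbered libraries shared a litter or sort is not stated, and these correlations cannot decide it. With the replicate block 9, 15 and 12 genes were called for cell type, site in EC and site in HE. For stage in EC and in HE 1 and 1 were called, and 0 for both interactions. No share of all genes is given for these counts. Phlda2, Slc22a18, Impact, Grb10 and Nap1l4 kept both site calls, and Cd81 and Igf2r their cell type calls, in all 16 runs that left out 1 library. With 2 libraries a group and unknown read depth, small differences and genes under 1 FPKM could not be resolved.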

Other observations

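The list of 14 genes that act on imprints pools genes that place or protect them with Tet1, Tet2, Tet3 and Tdg, which remove DNA methylation. Of the 14, 13 had a value. In yolk sac EC 8 fell and 0 rose, and in yolk sac HE 7 fell and 0 rose, by limma with Benjamini-Hochberg adjustment. These counts do not separate the 2 kinds of gene. Of all genes 18.7% were called lower in EC and 22.3% in HE. On E9.5 libraries alone 4 of 13 fell in HE, beside 7.57% of all genes called lower in that fit. Trim28, the corepressor that guards imprints with Zfp57, fell in EC (-0.72 ± 0.102 SE, adjusted p = 0.000245; 193 against 317 FPKM) and in HE (-0.77 ± 0.102 SE, adjusted p = 0.000126; 195 against 331 FPKM). Uhrf1, which brings the maintenance methyltransferase to replicated DNA, fell in EC (-0.78 ± 0.0886 SE, adjusted p = 4.77e-05; 77.7 against 132 FPKM) and in HE (-0.65 ± 0.0886 SE, adjusted p = 0.000157; 77.7 against 122 FPKM). Dnmt3b, a de novo methyltransferase, fell in EC (-1.15 ± 0.166 SE, adjusted p = 0.000285; 5.44 against 13.2 FPKM) and in HE (-1.26 ± 0.166 SE, adjusted p = 0.000131; 7.52 against 19.4 FPKM), and these HE values on E9.5 libraries alone were -0.65 (adjusted p = 0.00788), -0.54 (adjusted p = 0.012) and -1.31 (adjusted p = 0.0011). Over all genes tested the medians were -0.10 in EC and -0.14 in HE.

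Dppa3, which protects imprints in the early embryo and is also a germ cell marker, rose between E9.5 and E10.5 in EC (1.39 ± 0.231 SE, adjusted p = 0.0124) and was lower in yolk sac EC (-3.48 ± 0.231 SE, adjusted p = 7.34e-07; 0.227 against 18.4 FPKM). The 6 germ cell markers, which include Dppa3, summed to 192 and 127 FPKM in E10.5 embryo EC and to 0.204 to 25.5 in the other 14 libraries. The part of germ cells in the values of imprinted genes was not tested.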
